A study of Homo sapiens with 24 samples.

Results

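The members described here are the nuclear-encoded subunits of oxidative phosphorylation, the respiratory complexes and the ATP synthase of the mitochondrial inner membrane. They were taken by name: protein-coding rows whose symbol follows the subunit pattern for NADH dehydrogenase (NDUFA, NDUFB, NDUFC, NDUFS or NDUFV with a number), succinate dehydrogenase (SDHA to SDHD), the cytochrome bc1 complex (UQCR), cytochrome c oxidase (COX4 to COX8 with a letter A to C) or ATP synthase (ATP5). This gave 85 genes of the 60668 rows in the count table, 37 in complex I, 4 in complex II, 9 in complex III, 15 in complex IV and 20 in complex V. The rule used gene names and no measured value, but it was chosen with earlier results of these data known. Of the 85 members, 81 passed the filter on low counts and were tested.

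As background, complex I takes electrons from NADH, complex II takes them from succinate and is also an enzyme of the citric acid cycle, complex III passes them to cytochrome c, and complex IV passes them to oxygen. Protons pumped along the way return through complex V, whose rotation makes ATP. All of the complexes except complex II mix proteins made from nuclear genes with proteins made from mitochondrial DNA. MYC, a transcription factor that pairs with MAX, is known for raising genes of mitochondrial biogenesis in many cell types.

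The cells were MCF-10A, a line of human mammary epithelium that is immortal and does not form tumours. Some carried MYC-ER, a fusion of MYC to the part of the oestrogen receptor that binds hormone, which acts once 4-hydroxytamoxifen (4-OHT) is bound. Each of the 8 groups has 3 libraries: parental cells (genotype label wild-type) and MYC-ER cells (genotype label MYC.ER), each given 1 µM 4-OHT for 0, 8, 24 or 48 h while growing as 3D cultures on growth-factor-reduced Matrigel. Treatment started from day 3 and all cultures were taken on day 5, so culture age was equal and hours in the drug differed. The labels name no solvent control, no promoter for the fusion and no number of clones. They speak of triplicate wells without saying that these were separate cultures, so p-values measure the spread between these libraries, which may be technical. Comparisons over time within MYC-ER cells concern the activated fusion and 4-OHT together, and the same times in parental cells concern 4-OHT without the fusion. A change in MYC-ER cells alone therefore cannot be assigned to the fusion. The interaction, in log2, is how much the change in MYC-ER cells exceeds that in parental cells.

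Totals ran from 136860029 to 182438505 counts per library. Levels are in CPM, a gene's counts over the library total, rescaled with TMM factors. A difference is a log2 ratio from edgeR's quasi-likelihood test over 22158 genes, and a gene is said to have risen or fallen where its Benjamini-Hochberg adjusted p was under 0.05. The parental 0 h libraries differed more than those of any other group: over the 77 members that reached 10 CPM in some group, the median SD of log2 CPM between replicates was 0.249 in parental 0 h and 0.0299 to 0.0875 in the other groups. Replicate 3 held the highest of the 3 values for 70 of the 81 members tested, and replicate 2 held the lowest for 65. Mitochondrial transcripts took 3.86%, 7.28% and 7.03% of the counts in replicates 1, 2 and 3. Counts that rest on them are given with and without each of these libraries. All 11 epithelial markers were detected, with a summed level of 17576 to 18118 CPM in MYC-ER 0 h, then 24381 to 26921 (8 h), 13768 to 14383 (24 h) and 12690.0 to 13434 (48 h), and of 25059 to 39668 CPM in parental cells. Of 7 fibroblast markers, 4 were tested (COL1A1, DCN, LUM and PDGFRB), and their summed level over the 7 was 369.6 to 377 CPM in MYC-ER 0 h, then 102 to 109 (8 h), 79.9 to 91.8 (24 h) and 121 to 130.2 (48 h). In parental cells it was 117 to 133 CPM at 0 h and 77.3 to 109 CPM later. Leukocyte markers were near 0, with CD3E at 0 counts and a sum of at most 9.03 CPM in any library, and endothelial markers summed to at most 2.99 CPM, with CDH5 at 0. The part of these markers and of the mitochondrial share in the results was not tested.

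**Figure D1:**
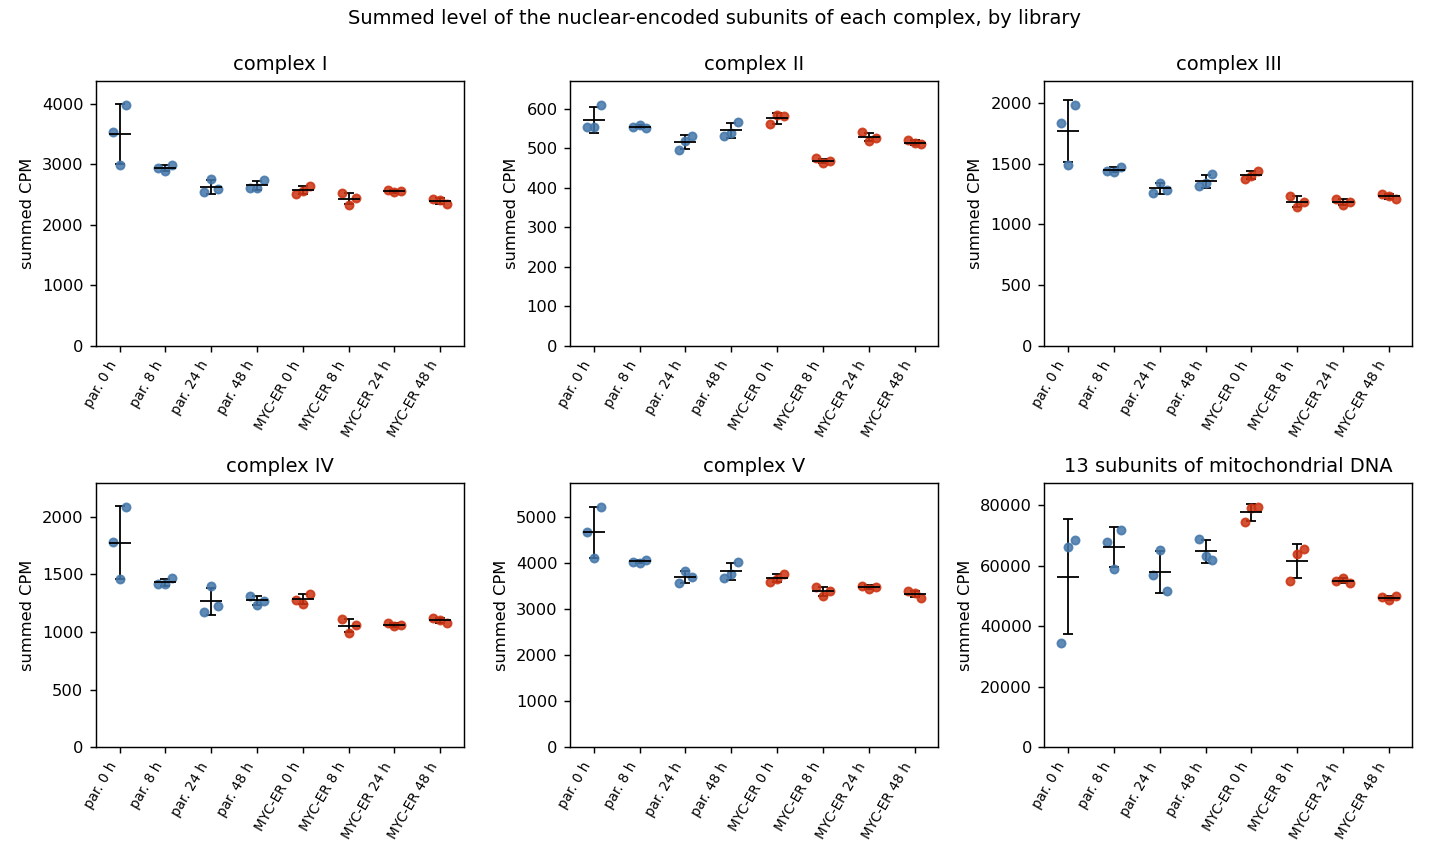
Summed CPM of the members of each complex (y axes, from 0) in the 24 libraries, with the 13 subunits of mitochondrial DNA in the last panel; points are libraries, dashes and bars the mean and SD of 3. The parental 0 h libraries spread widely, with complex I sums of 3529, 2989 and 3979 CPM. In MYC-ER cells the sums of complexes II, III, IV and V were lower in every 8 h library than in every 0 h library.

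The members were abundant as a group. Summed over all 85, they took 9510.2 ± 224 CPM in MYC-ER cells and 12286 ± 1644 CPM in parental cells at 0 h (SD, n = 3). Per kilobase of 1 annotated transcript per gene, the highest in MYC-ER 0 h was ATP5F1B, the catalytic beta subunit of ATP synthase, at 574 ± 14.6 CPM per kilobase, followed by UQCRH, the hinge protein of complex III, at 335 ± 10.6 and COX6A1 at 316 ± 10.2. UQCRH and COX6A1 differed by less than the sum of their SDs, and UQCRH has a near copy, UQCRHL, to which its reads may in part have gone. Among complex I members NDUFB9 led with 174 ± 9.04 CPM per kilobase, and NDUFA9 was lowest with 8.07 ± 0.256. The rank of NDUFA9 rests on the length of the 1 transcript taken for it. By counts, at 11362 to 11976 in the MYC-ER 0 h libraries, it was not the lowest of the complex.

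Isoforms known from muscle, heart or testis, and a near copy of ATP5MG, were at or near 0. COX7A1 and COX7B2 had no count in any library, which leaves room for at most 0.0219 CPM in a library, COX6A2 had 1 count in all 24 libraries, and ATP5MGL had 46. These 4 were not tested. COX8C and COX6B2, testis-type isoforms, passed the filter with group means of at most 0.147 and 0.588 CPM, and the read-through gene ATP5MF-PTCD1 had at most 1.54 CPM in a library. The fitted changes of these 3 are counted below and are not read further, since they rest on few counts or on single libraries. Their broadly expressed counterparts carried the signal: COX6A1, COX6B1, COX7A2, COX7B and COX8A had 181 ± 5.84, 122 ± 2.94, 102 ± 2.43, 81.7 ± 0.881 and 113 ± 6.58 CPM in MYC-ER 0 h. NDUFA4 is counted under complex I by its symbol, although it is now known as a subunit of complex IV. For 34 of the 85 members another gene with at least 1% of the member's counts overlaps on the same or the other strand, and it is not stated whether strand was used in counting. Such overlaps are named below for some members and not for all. ATP5F1A, ATP5MC1, NDUFA6, NDUFB9 and NDUFS3 also have an overlapping gene, which for NDUFS3 includes PTPMT1 on its own strand.

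At 8 h of 4-OHT, MYC-ER cells showed no common rise of these subunits. Of the 81 tested, 18 rose and 36 fell, where 67.6% of all genes were called, 32.2% higher and 35.4% lower. The median log2 difference was -0.15 for the members and -0.10 for all genes. By complex, the counts were 11 higher and 12 lower of 37 in complex I, 1 higher and 3 lower of 4 in complex II, 1 higher and 5 lower of 9 in complex III, 0 higher and 9 lower of 12 in complex IV and 5 higher and 7 lower of 19 in complex V. The members' values did not overlap between the groups for 65 of 81, beside 73.5% of all genes. The split moved with the scaling, to 13 higher and 46 lower with library size alone and 10 higher and 46 lower with upper quartiles, settings under which the median of all genes was -0.19 and -0.24. With trends on GC content and length removed it was 25 higher and 32 lower. In bulk RNA, fewer cells with a transcript and less of it per cell cannot be told apart.

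**Figure D2:**
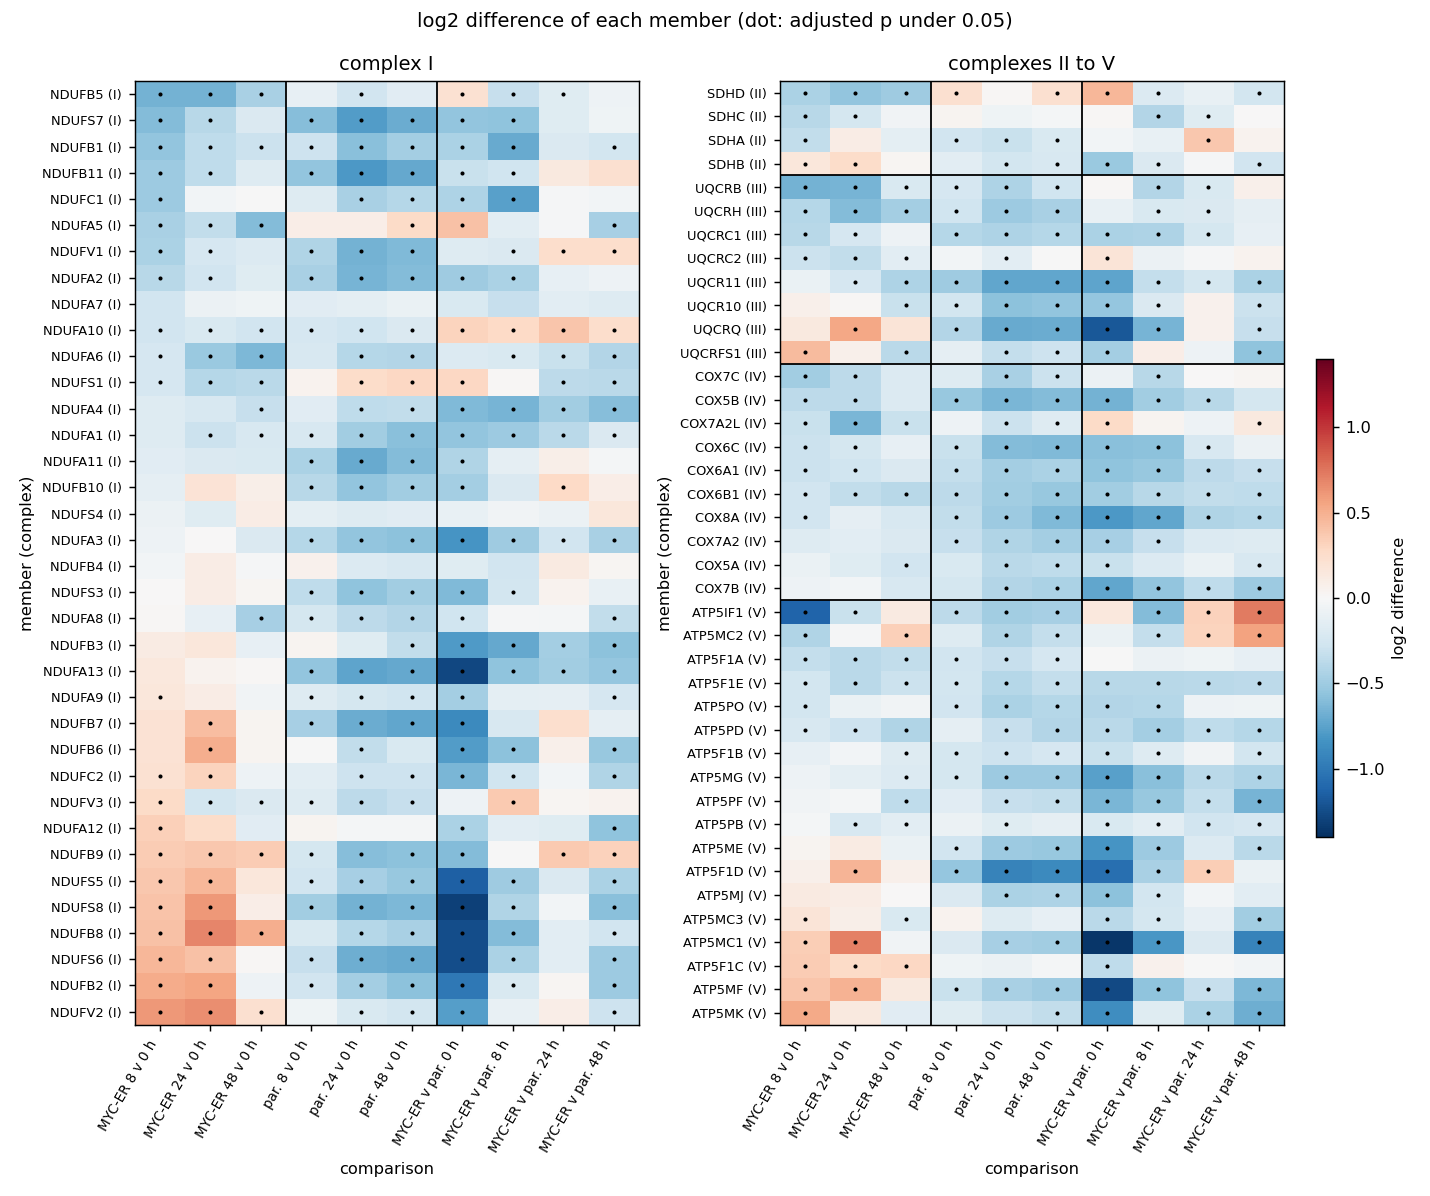
log2 difference of 76 of the 77 members that reached 10 CPM in some group (rows, with the complex in brackets, ordered within a complex by the MYC-ER change at 8 h) in 10 comparisons (columns); red is higher in the group named first, and a dot marks an adjusted p under 0.05. Complex I ran from NDUFB5 (-0.66) to NDUFV2 (0.61) at 8 h, no member of complex IV rose there, and the parental columns were blue for most members.

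Complex I split within itself. NDUFV2, an iron-sulphur subunit of the NADH-binding module, measured 62.8, 65.5 and 67.4 CPM in the MYC-ER libraries at 0 h and 104, 93.5 and 100.3 at 8 h. Every 8 h library lay above every 0 h library, and NDUFV2 rose by 0.61 (adjusted p = 2.6e-07, SE 0.075) on the log2 scale, or 1.52-fold. NDUFS7, a core subunit that carries the last iron-sulphur cluster before ubiquinone, went the other way, from 75.5, 71.9 and 75.6 CPM to 49.1, 46.5 and 50.4. The groups again did not overlap, and NDUFS7 fell by 0.61 (adjusted p = 5.7e-06, SE 0.094) in log2. In parental cells NDUFS7 also fell at 8 h, by 0.60 (adjusted p = 7.7e-05, SE 0.093), so its fall was not particular to MYC-ER cells. That parental call was lost when the groups compared were fitted alone (-0.60, adjusted p = 0.051). The promoter windows of these genes are shown because the core subunits they encode moved in opposite directions. They are RefSeq sequences on GRCh38.p14, from 250 bases before to 50 after the start, at chr18:9102449-9102748, plus strand for NDUFV2 (gene at chr18:9102630-9134345 in the GENCODE annotation of GRCh38) and chr19:1383657-1383956, plus strand for NDUFS7 (gene at chr19:1383527-1395589). Capitals mark matches on either strand to CACGTG (the E-box bound by MYC with MAX), GCATGCGC (part of the site of NRF1), CCGGAAGT (an ETS site of the GABPA type) or GCCATNTT (the YY1 type).
NDUFV2: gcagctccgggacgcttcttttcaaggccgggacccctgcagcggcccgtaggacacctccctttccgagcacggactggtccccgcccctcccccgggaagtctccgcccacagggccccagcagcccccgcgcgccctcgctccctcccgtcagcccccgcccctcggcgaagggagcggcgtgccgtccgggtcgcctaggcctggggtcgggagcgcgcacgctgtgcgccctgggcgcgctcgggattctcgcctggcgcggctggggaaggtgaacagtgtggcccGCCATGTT
NDUFS7: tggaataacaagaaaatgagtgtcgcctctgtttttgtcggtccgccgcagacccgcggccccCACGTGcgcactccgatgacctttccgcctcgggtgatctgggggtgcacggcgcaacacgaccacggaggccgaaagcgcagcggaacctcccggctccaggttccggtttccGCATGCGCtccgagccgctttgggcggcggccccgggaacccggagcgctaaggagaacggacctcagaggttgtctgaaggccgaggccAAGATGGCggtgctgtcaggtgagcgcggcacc
The NDUFV2 window holds 1 GCCATNTT match and no E-box, and the NDUFS7 window holds 1 match each to CACGTG, GCATGCGC and GCCATNTT. A match is a description of letters and shows no binding.

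Among the core subunits, those conserved from bacteria, NDUFV2 and NDUFS8 rose at 8 h and NDUFS7, NDUFV1 and NDUFS1 fell, with NDUFS3 at 0.01 (adjusted p = 0.95, SE 0.074). NDUFS8, the TYKY subunit, had 45.6, 42.1 and 47.5 CPM at 0 h and 61.03, 56.3 and 60.7 at 8 h, and rose by 0.40 (adjusted p = 5.8e-04, SE 0.091). NDUFV1, which binds NADH and FMN next to NDUFV2, had 238, 240.0 and 246 and then 180.5, 172 and 179 CPM, and fell by 0.45 (adjusted p = 5.4e-05, SE 0.082). Neither pair of groups overlapped. NDUFS1 fell by 0.23 (adjusted p = 0.0016, SE 0.060) and overlaps EEF1B2 on the other strand. Of the 30 accessory subunits 9 rose and 8 fell, beside 32.2% of all genes higher and 35.4% lower. NDUFB2 rose by 0.52 (adjusted p = 1.5e-05, SE 0.086), with 68.1, 61.6 and 64.9 CPM at 8 h against 46.2, 43.6 and 45.6, though it shares its locus with ADCK2, BRAF and an antisense gene. NDUFS6, which carries a zinc site, rose by 0.47 (adjusted p = 8.5e-05, SE 0.089), and NDUFB8 by 0.41 (adjusted p = 1.9e-04, SE 0.085), with AL133352.1 overlapping NDUFB8 on its own strand and HIF1AN on the other. NDUFB5 had the largest fall of the complex, from 100.2, 102 and 114 CPM to 68.7, 65.5 and 65.6, and fell by 0.66 (adjusted p = 5.5e-09, SE 0.063). Its 0 h and 8 h values did not overlap. By name the NDUFB genes divided evenly, with 3 higher and 3 lower of 11, and the NDUFA genes gave 2 higher and 4 lower of 13. The shares of all genes beside them are again 32.2% higher and 35.4% lower.

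**Figure D3:**
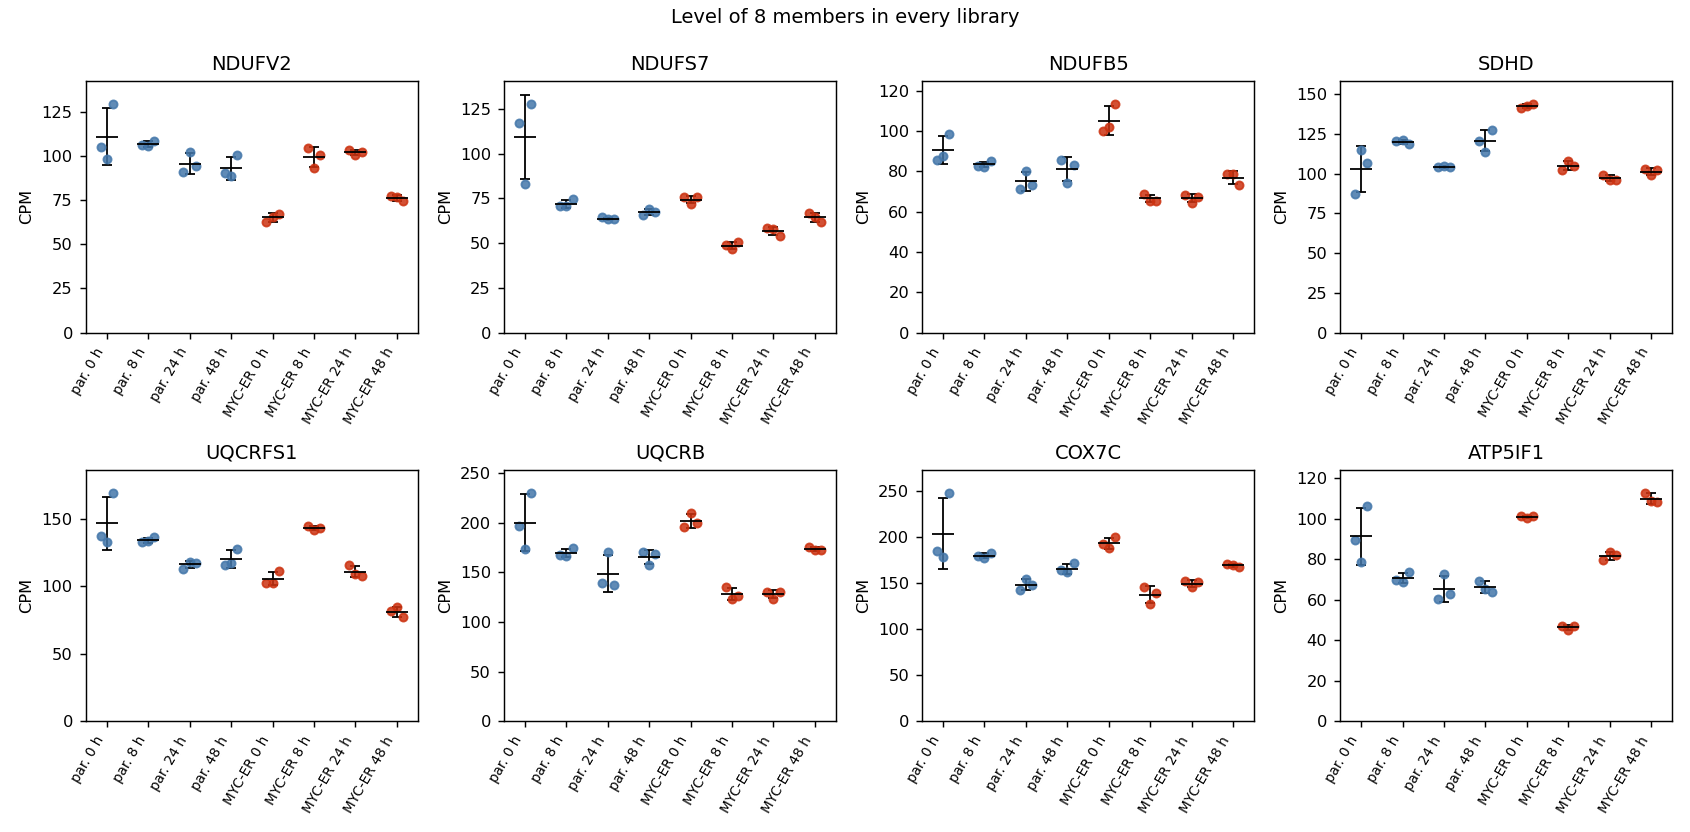
CPM (y axes, from 0) of 8 members in every library; points are libraries, dashes and bars the mean and SD of 3. NDUFV2 and UQCRFS1 were higher, and NDUFS7, NDUFB5, SDHD, UQCRB, COX7C and ATP5IF1 lower, in every MYC-ER 8 h library than in every MYC-ER 0 h library.

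The 4 subunits of complex II were each called at 8 h and did not move together. SDHB, the iron-sulphur subunit, rose from 75.9, 80.8 and 83.5 CPM to 93.8, 85.8 and 89.2, by 0.16 (adjusted p = 0.025, SE 0.062). The groups were separate, yet the rise was not called without replicate 1 of either group, with at least 10 counts in every library, with library size alone (0.07, adjusted p = 0.19) or with upper quartiles (0.02, adjusted p = 0.77). SDHC and SDHD anchor the enzyme in the membrane. SDHC had 184, 195 and 189 CPM at 0 h and 145, 146 and 143 at 8 h, with no overlap, and fell by 0.39 (adjusted p = 1.8e-08, SE 0.040). SDHD had 141, 143 and 144 and then 102, 108 and 105 CPM, also with no overlap, and fell by 0.44 (adjusted p = 3.3e-06, SE 0.065). It shares its locus with TIMM8B on the other strand. SDHA, the flavoprotein, fell by 0.34 (adjusted p = 6.4e-05, SE 0.063) and rose by 0.45 (adjusted p = 3.2e-06, SE 0.063) between 8 and 24 h, when its values were 185, 173 and 171 CPM. SDHD stayed low, with a log2 difference from 0 h of -0.55 (adjusted p = 1.6e-07, SE 0.065) by 24 h and -0.49 (adjusted p = 1.9e-06, SE 0.065) by 48 h. SDHC measured 185, 184 and 179 CPM at 48 h, a difference of -0.05 (adjusted p = 0.34, SE 0.040) that was 0.11 (adjusted p = 0.016) with library size alone.

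In complex III the Rieske iron-sulphur protein went against the 5 members that fell. UQCRFS1, which encodes it, measured 103, 103 and 111 CPM at 0 h and 145, 142 and 143 at 8 h, and rose by 0.44 (adjusted p = 5.5e-06, SE 0.067). By 48 h its values were 81.8, 84.6 and 77.1 CPM, below every 0 h value, and it fell by 0.38 (adjusted p = 8.7e-05, SE 0.067). UQCRFS1 has a processed copy, UQCRFS1P1, with 17763 counts over the 24 libraries, so a part of its reads may be shared. UQCRB, which binds near the ubiquinone site, had 196, 209.6 and 200.2 CPM at 0 h and 135, 123 and 126 at 8 h without overlap, and fell by 0.66 (adjusted p = 3.4e-07, SE 0.082). At 24 h UQCRB had 131, 124 and 131 CPM, and from there to 48 h it rose by 0.43 (adjusted p = 1.1e-04, SE 0.082). UQCRH fell by 0.39 (adjusted p = 1.7e-04, SE 0.080) at 8 h, a call that was lost with GC and length trends removed, and fell by 0.61 (adjusted p = 8.5e-07, SE 0.080) at 24 h. Its near copy UQCRHL, at 6.79 ± 0.669 CPM in MYC-ER 0 h, fell by 0.34 (adjusted p = 0.021, SE 0.12) at 8 h, which was not called without MYC-ER 0 h replicate 1 or 3 or MYC-ER 8 h replicate 2. UQCRQ, a small accessory subunit, gave 147, 143 and 146 CPM at 24 h against 103, 94.3 and 103 at 0 h and rose by 0.54 (adjusted p = 1.8e-05, SE 0.089). It was the member of complex III that was higher at 24 h, against 6 that were lower, beside 30.4% of all genes higher and 31.2% lower.

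No member of complex IV rose in MYC-ER cells against 0 h at any of the 3 times, while 9, 8 and 3 of 12 fell at 8, 24 and 48 h, COX8C and COX6B2 among them at 8 and 24 h. Of all genes, 32.2%, 30.4% and 23.4% rose and 35.4%, 31.2% and 20.7% fell at these times. The share of complex IV that fell at 48 h (25.00%) was therefore near that of all genes. COX7C, an accessory subunit, had 192, 188 and 199.7 CPM at 0 h and 146, 127 and 139 at 8 h, and fell by 0.49 (adjusted p = 1.9e-05, SE 0.083). The values of the groups were apart. COX5B, which holds a zinc ion, went from 141, 126 and 144 CPM to 113, 99.2 and 109 and fell by 0.36 (adjusted p = 0.0073, SE 0.11). COX7A2L, which is known for joining complexes III and IV into supercomplexes, had 82.7, 86.1 and 87.9 CPM before 4-OHT. After 8 h it had 69.2, 68.03 and 69.8, after 24 h 55.2, 53.99 and 55.8 and after 48 h 71.6, 67.9 and 67.4 CPM. Its values were lowest at 24 h, where it fell by 0.64 (adjusted p = 2.3e-09, SE 0.057). NDUFA4 had 103, 107 and 109.9 CPM at 0 h and at 48 h fell by 0.32 (adjusted p = 0.011, SE 0.099), a call that was lost with library size alone and with the GC trend removed.

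ATP5IF1 showed the largest change over time in MYC-ER cells among members with at least 10 CPM. It encodes the inhibitor that binds ATP synthase and stops it from breaking down ATP when the proton gradient fails. In MYC-ER cells it measured 101, 100.4 and 101 CPM before 4-OHT and 46.9, 45.04 and 46.97 after 8 h. After 24 h it measured 79.3, 83.4 and 81.9 CPM, and after 48 h 113, 108 and 108. The 8 h values were the lowest and the 24 h values lay between them and those at 0 h, without overlap. ATP5IF1 fell by 1.12 (adjusted p = 2.7e-11, SE 0.078) at 8 h, to 0.459 of the starting level, and rose again by 0.82 (adjusted p = 9.3e-09, SE 0.078) from 8 to 24 h. Against the start it was still low by 24 h, -0.31 (adjusted p = 0.0016, SE 0.077), and by 48 h the difference was 0.12 (adjusted p = 0.21, SE 0.077), or 0.28 (adjusted p = 0.0031) with library size alone. Parental cells gave 89.3, 78.4 and 106 CPM at 0 h and 69.6, 68.9 and 73.6 at 8 h, and fell by 0.37 (adjusted p = 0.0012, SE 0.077), which was not called from these groups alone. The interaction at 8 h was -0.76 (adjusted p = 4.1e-06, SE 0.11). A non-coding gene, AL353622.1, overlaps ATP5IF1 on the other strand. Its promoter window (chr1:28235874-28236173, plus strand, RefSeq, GRCh38.p14, with the gene at chr1:28236109-28246906 in GENCODE) is shown as that of the member with this change, and none of the motifs named above has a match in it, so no capitals appear.
ATP5IF1: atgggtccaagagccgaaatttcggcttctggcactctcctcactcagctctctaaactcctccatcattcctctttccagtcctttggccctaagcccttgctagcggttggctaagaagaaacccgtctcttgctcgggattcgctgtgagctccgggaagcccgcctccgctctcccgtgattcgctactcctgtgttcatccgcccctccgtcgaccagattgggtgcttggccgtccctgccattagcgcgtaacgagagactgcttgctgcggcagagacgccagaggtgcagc
No match says only that those letters are not in this window.

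The genes ATP5MC1, ATP5MC2 and ATP5MC3 encode precursors of the same c subunit, which forms the rotating ring of ATP synthase, and their shares shifted in MYC-ER cells. ATP5MC1 had 42.3, 43.3 and 45.3 CPM before 4-OHT, then 56.6, 51.96 and 57.6 (8 h), 71.2, 70.9 and 70.8 (24 h) and 42.7, 42.9 and 40.9 (48 h). It rose by 0.34 (adjusted p = 0.0032, SE 0.095) at 8 h, not called with upper quartiles, and by 0.70 (adjusted p = 1.4e-06, SE 0.096) at 24 h, and its 48 h values overlapped those before treatment. ATP5MC2 had 188, 185 and 200.4 CPM before 4-OHT, then 144, 136 and 148 (8 h), 187, 189 and 191 (24 h) and 242, 240.0 and 238 (48 h). It fell by 0.42 (adjusted p = 2.0e-04, SE 0.086) at 8 h, where ATP5MC1 rose, and rose by 0.33 (adjusted p = 0.0037, SE 0.086) at 48 h. From 8 to 24 h the values of both genes went up. Between 24 and 48 h ATP5MC1 fell by 0.75 (adjusted p = 7.4e-07, SE 0.096) while ATP5MC2 rose by 0.35 (adjusted p = 0.0018, SE 0.086). ATP5MC3 rose by 0.18 (adjusted p = 0.036, SE 0.073) at 8 h and fell by 0.22 (adjusted p = 0.019, SE 0.073) at 48 h, and both calls were lost with library size alone, at 0.09 (adjusted p = 0.19) and -0.06 (adjusted p = 0.49). The 8 h call was also lost without MYC-ER 0 h replicate 1 or 2 or MYC-ER 8 h replicate 1 or 3, and the 48 h call without replicate 3 of MYC-ER 0 h or of MYC-ER 48 h.

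The summed level of the 3 genes in MYC-ER cells was 486 ± 16.3 CPM before 4-OHT, then 482 ± 15.7 (8 h), 525 ± 2.65 (24 h) and 498 ± 7.08 (48 h). Of that sum ATP5MC1 took 8.98% ± 0.162, 11.5% ± 0.290, 13.5% ± 0.0315 and 8.47% ± 0.106 at the 4 times. ATP5MC2 took 39.4% ± 0.342, 29.6% ± 0.528, 35.99% ± 0.615 and 48.2% ± 0.367, and ATP5MC3 the rest. In parental cells the share of ATP5MC1 was 17.4% ± 1.40 at 0 h and 14.8% ± 1.89 at 48 h, and that of ATP5MC2 was 31.8% ± 2.40 and 29.7% ± 1.84. These shares are of counts and not per length, and they were not tested. The promoter windows of ATP5MC1 (chr17:48892537-48892836, plus strand, gene at chr17:48892765-48895871) and ATP5MC2 (chr12:53676034-53676333, minus strand, gene at chr12:53632726-53677408) are shown because these genes for the same subunit moved in opposite directions from 0 to 8 h and from 24 to 48 h (RefSeq, GRCh38.p14, genes as in GENCODE, capitals as above).
ATP5MC1: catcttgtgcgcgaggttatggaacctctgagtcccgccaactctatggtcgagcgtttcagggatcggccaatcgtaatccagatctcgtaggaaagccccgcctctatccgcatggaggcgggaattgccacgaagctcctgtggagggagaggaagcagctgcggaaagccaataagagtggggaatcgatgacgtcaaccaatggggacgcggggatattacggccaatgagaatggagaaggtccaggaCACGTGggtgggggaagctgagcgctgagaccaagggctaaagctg
ATP5MC2: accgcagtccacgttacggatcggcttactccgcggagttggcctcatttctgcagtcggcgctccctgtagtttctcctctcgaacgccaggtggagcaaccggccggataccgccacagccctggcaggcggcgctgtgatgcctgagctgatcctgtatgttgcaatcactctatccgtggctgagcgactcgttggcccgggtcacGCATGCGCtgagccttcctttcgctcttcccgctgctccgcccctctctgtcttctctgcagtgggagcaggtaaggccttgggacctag
The ATP5MC1 window has a CACGTG match and the ATP5MC2 window a GCATGCGC match, and the table used held no window for ATP5MC3.

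**Figure D4:**
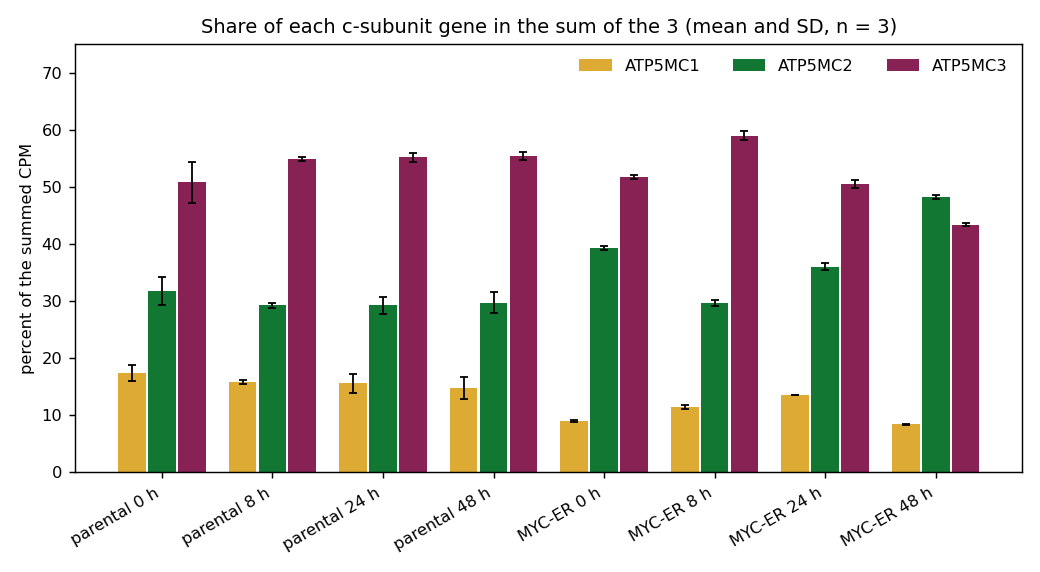
Share of ATP5MC1, ATP5MC2 and ATP5MC3 in their summed CPM (y axis, percent, from 0) in each of the 8 groups; bars are means and error bars the SD of 3 libraries. In MYC-ER cells ATP5MC2 took 29.6% ± 0.528 at 8 h and 48.2% ± 0.367 at 48 h, and ATP5MC3 was the largest share in every group except MYC-ER 48 h.

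Elsewhere in complex V the catalytic part was uneven. ATP5F1A, the alpha subunit, had 765, 803 and 810.0 CPM at 0 h and 640.3, 619.6 and 624 at 8 h and fell by 0.34 (adjusted p = 2.6e-05, SE 0.058). Its log2 difference from 0 h was -0.38 (adjusted p = 6.6e-06, SE 0.058) by 24 h and -0.34 (adjusted p = 5.1e-05, SE 0.058) by 48 h. ATP5F1B, the beta subunit, had 1029, 1054 and 1083 CPM and then 996, 953 and 972, with a difference of -0.12 (adjusted p = 0.082, SE 0.058) that missed the threshold. It was called lower in 5 other settings, at -0.21 (adjusted p = 1.8e-04) by library size alone, -0.26 (adjusted p = 6.2e-04) by upper quartiles, -0.15 (adjusted p = 0.019) under the filter of 10 counts per library, -0.16 (adjusted p = 0.0029) once GC and length trends were taken out, and -0.12 (adjusted p = 0.042) when parental 0 h replicate 2 was dropped. ATP5F1C, the gamma subunit of the central stalk, rose from 134, 143 and 144 CPM to 191, 169 and 179, by 0.36 (adjusted p = 5.9e-04, SE 0.082), and was still higher by 0.29 (adjusted p = 0.0064, SE 0.081) at 48 h. For both ATP5F1A and ATP5F1C the 8 h and 48 h groups lay apart from 0 h. ATP5MK, a small membrane subunit, rose by 0.53 (adjusted p = 7.5e-04, SE 0.12) at 8 h and overlaps TAF5 on the other strand.

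At 24 h in MYC-ER cells, 16 members were higher and 33 lower than at 0 h, where 61.6% of all genes were called, 30.4% higher and 31.2% lower, and this balance became 26 higher and 22 lower with library size alone, which moved the median of all genes from -0.02 to 0.09. At 48 h, 5 were higher and 28 lower, beside 44.1% called, 23.4% higher and 20.7% lower, and with library size alone 17 higher and 12 lower, with the median of all genes at 0.19 instead of 0.03. Members' medians were -0.13 and -0.17. Groups did not overlap for 66 members at 24 h, beside 70.7% of all genes, and for 57 at 48 h, beside 62.3%. Over the 3 times, ATP5F1C, NDUFB8, NDUFB9 and NDUFV2 were called higher each time, 15 members were called lower each time, 13 were called at none, and ATP5MC2, ATP5MC3, NDUFV3 and UQCRFS1 were called in both directions. Of all genes 12.2% were higher each time, 10.3% lower each time, 18.6% called at none and 13.5% called in both directions. The 3 comparisons share the same 0 h libraries.

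Complex I had 10 higher and 12 lower of 37 at 24 h and 3 higher and 10 lower of 37 at 48 h, and the members on each side were not all those of 8 h, since NDUFV3 was called in both directions. NDUFB8 had 35.6, 34.9 and 36.4 CPM at 0 h and 55.6, 57.8 and 58.7 at 24 h, and rose by 0.69 (adjusted p = 3.2e-07, SE 0.085). At 48 h it was still higher by 0.51 (adjusted p = 3.4e-05, SE 0.085), NDUFB9 by 0.36 (adjusted p = 0.0022, SE 0.088) and NDUFV2 by 0.23 (adjusted p = 0.017, SE 0.075). The call on NDUFV2 at 48 h was lost with GC and length trends removed and without MYC-ER 0 h replicate 1 or MYC-ER 48 h replicate 1 or 2. NDUFA6 and NDUFA5, accessory subunits of the matrix arm, had the largest falls of the complex at 48 h. NDUFA6 fell by 0.63 (adjusted p = 2.2e-06, SE 0.084) and NDUFA5 fell by 0.60 (adjusted p = 5.2e-07, SE 0.072). NDUFA5 measured 60.6, 67.4 and 67.4 CPM at 0 h and 41.97, 43.3 and 43.4 at 48 h. The NDUFA genes as named had no member higher and 5 and 6 of 13 lower at 24 and 48 h. Of all genes, 30.4% were higher and 31.2% lower at 24 h, and 23.4% and 20.7% at 48 h.

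Between 8 and 24 h, 15 members were higher and 8 lower, beside 55.5% of all genes called, 28.4% higher and 27.1% lower. That balance depended on the processing: it was 48 higher and 3 lower with library size alone and 28 higher and 3 lower with upper quartiles, which put the median of all genes at 0.26 and 0.15 against 0.05, 19 higher and 6 lower with at least 10 counts in every library, 31 higher and 10 lower from these groups alone, and turned to 13 higher and 30 lower once GC and length trends were removed. NDUFV3, an accessory subunit next to the NADH-binding module, fell by 0.53 (adjusted p = 6.1e-08, SE 0.057). Groups did not overlap for 46 members, beside 65.0% of all genes. Between 24 and 48 h, 9 members were higher and 24 lower, beside 53.7% called, 28.2% higher and 25.5% lower (16 higher and 22 lower with library size alone, 16 higher and 16 lower with upper quartiles). NDUFB2 fell by 0.62 (adjusted p = 2.3e-06, SE 0.086), from 65.4, 66.4 and 66.5 CPM to 44.3, 42.7 and 41.6, and UQCRFS1 fell by 0.45 (adjusted p = 7.2e-06, SE 0.067). Groups did not overlap for 66 members, beside 68.0% of all genes.

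In parental cells 4-OHT was followed by lower levels of most members. At 8 h 43 of 81 were lower and 1 higher, beside 31.0% of all genes called, 15.0% higher and 16.0% lower. At 24 h 66 were lower and 2 higher, beside 42.9%, 21.2% and 21.7%, and at 48 h 64 and 3, beside 40.5%, 20.4% and 20.1%. The members' medians were -0.25, -0.42 and -0.40, with 0.00, -0.03 and 0.00 for all genes, and 43 members were lower at all 3 times, beside 9.64% of all genes. Among these 43 were NDUFS7, SDHA, UQCRH, COX5B, ATP5IF1 and ATP5F1A, which also fell in MYC-ER cells at 8 h. NDUFS1, SDHC, SDHD and ATP5MC2, which fell there too, were not among the 43. Absence from the 43 leaves room for a fall at some of the times. Before scaling, ATP5MC2 had 30046 to 39554 counts in parental 0 h libraries and 21406 to 26252 in parental 24 h libraries, whereas SDHD and NDUFS1 were called higher at 48 h. Groups did not overlap for 24, 54 and 59 members, beside 33.9%, 43.1% and 39.0% of all genes. These comparisons share the unevenly spread 0 h libraries. The 8 h count was 22 without parental 0 h replicate 3, 29 without its replicate 1, 64 without its replicate 2 and 28 without parental 8 h replicate 1, against 44 with all libraries. Without replicate 1, 2 or 3 of parental 0 h, 70, 72 and 60 members were called at 24 h and 70, 71 and 54 at 48 h. When the spread was estimated from the groups compared alone, 0, 39 and 32 members were called at 8, 24 and 48 h. The share of all genes called in that setting is not given here, so these counts cannot be weighed against it.

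UQCR11 and UQCRQ of complex III, both small accessory subunits, were lower at 24 h. UQCR11 fell by 0.73 (adjusted p = 8.4e-06, SE 0.097) and UQCRQ fell by 0.71 (adjusted p = 4.3e-06, SE 0.089). UQCRQ gave 243, 179 and 264 CPM at 0 h and 137, 147 and 136 at 24 h. The lowest 0 h library was replicate 2 and still lay above the 24 h values. ATP5F1D, the delta subunit of the central stalk, had the largest fall among members of at least 10 CPM. It gave 162, 100.1 and 176 CPM at 0 h and 79.4, 71.7 and 79.01 at 24 h and fell by 0.93 (adjusted p = 1.6e-05, SE 0.13). In complex I, NDUFB11, which overlaps RBM10 on the other strand, fell by 0.80 (adjusted p = 2.3e-06, SE 0.095), and NDUFS7 fell by 0.78 (adjusted p = 2.8e-06, SE 0.094), from 117, 82.9 and 128 CPM to 64.4, 63.5 and 63.3. COX5B fell by 0.64 (adjusted p = 1.2e-04, SE 0.11) in complex IV. For each of these 6 genes the 0 h and 24 h values did not overlap, and the call held without any single library of the 24.

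Few members went up in parental cells, and most of those calls were lost in other settings. NDUFS1, the largest core subunit, had 129, 147 and 119 CPM at 0 h and 153, 162 and 158 at 24 h and rose by 0.26 (adjusted p = 0.0013, SE 0.060), but with GC and length trends removed it was lower, -0.27 (adjusted p = 3.1e-04). The other member called higher at 24 h, ATP5MF-PTCD1, rested on a single library with 1.54 CPM. At 48 h NDUFA5 and SDHD were called higher beside NDUFS1, by 0.27 (adjusted p = 0.0045, SE 0.072) and 0.23 (adjusted p = 0.0072, SE 0.065), and removal of the GC trend put them at -0.14 (adjusted p = 0.055) and -0.01 (adjusted p = 0.89). At 8 h SDHD was the member called higher, by 0.22 (adjusted p = 0.013, SE 0.065), and this call was lost in 4 settings. SDHD was at 0.04 (adjusted p = 0.64) once the GC trend was taken out, 0.13 (adjusted p = 0.087) once the length trend was too, 0.22 (adjusted p = 0.2) from these groups alone and 0.12 (adjusted p = 0.084) when replicate 1 of parental 0 h was dropped.

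Before any 4-OHT the lines differed already. MYC-ER cells were lower than parental cells for 56 members and higher for 9, where 64.3% of all genes were called, 31.6% higher and 32.7% lower, with a median of -0.46 for the members and 0.00 for all genes. ATP5MC1 had 42.3, 43.3 and 45.3 CPM in MYC-ER cells and 109.6, 91.5 and 137 in the parental line, a log2 difference of -1.37 (adjusted p = 4.5e-11, SE 0.097). NDUFS8 had 45.6, 42.1 and 47.5 against 122, 85.9 and 127 CPM, a log2 difference of -1.31 (adjusted p = 4.0e-11, SE 0.092). UQCRQ had 103, 94.3 and 103 against 243, 179 and 264 CPM, -1.19 (adjusted p = 1.4e-10, SE 0.090). The parental values of these 3 members were all above the MYC-ER values, in spite of the spread of the parental libraries. COX8A was lower by 0.80 (adjusted p = 7.4e-07, SE 0.10), and NDUFA13, with overlapping genes on its strand, was lower by 1.28 (adjusted p = 3.0e-07, SE 0.16). Against this direction SDHD was higher in MYC-ER cells by 0.47 (adjusted p = 1.6e-06, SE 0.065), NDUFA10 by 0.31 (adjusted p = 1.9e-05, SE 0.052) and COX7A2L by 0.27 (adjusted p = 2.9e-04, SE 0.057), and the call on NDUFA10 was lost once GC and length trends were removed (0.11, adjusted p = 0.21). Without replicate 1, 2 or 3 of parental 0 h, 66, 73 and 60 members were called. Groups did not overlap for 63 members, beside 65.0% of all genes.

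After 4-OHT the comparison of the lines gave 2 higher and 55 lower at 8 h (beside 48.6% called, 23.1% higher and 25.5% lower), 8 and 27 at 24 h (beside 49.4%, 23.5% and 25.8%) and 7 and 42 at 48 h (beside 56.7%, 27.3% and 29.4%). The medians were -0.32, -0.12 and -0.23, and groups did not overlap for 72, 53 and 60 members, beside 60.8%, 60.4% and 66.8% of all genes. At 24 h the counts were 16 higher and 15 lower with library size alone and 9 higher and 13 lower with upper quartiles, and 22 members were called without parental 24 h replicate 2. At 48 h those scalings gave 17 higher and 31 lower and 15 higher and 25 lower. They put the median of all genes at 0.14 and 0.12 at 24 h, against 0.02, and 0.16 and 0.16 at 48 h, against 0.02. NDUFA10 was higher and 16 members were lower at all 4 times, beside 3.32% and 4.79% of all genes. At 48 h ATP5IF1, at 113, 108 and 108 CPM against 69.3, 65.3 and 63.7, was higher in MYC-ER cells by 0.73 (adjusted p = 4.8e-08, SE 0.078), and ATP5MC2 by 0.56 (adjusted p = 8.9e-06, SE 0.087), while ATP5MC1 was lower by 0.93 (adjusted p = 3.1e-08, SE 0.096) and NDUFA4 was lower by 0.60 (adjusted p = 2.1e-05, SE 0.099).

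**Figure D5:**
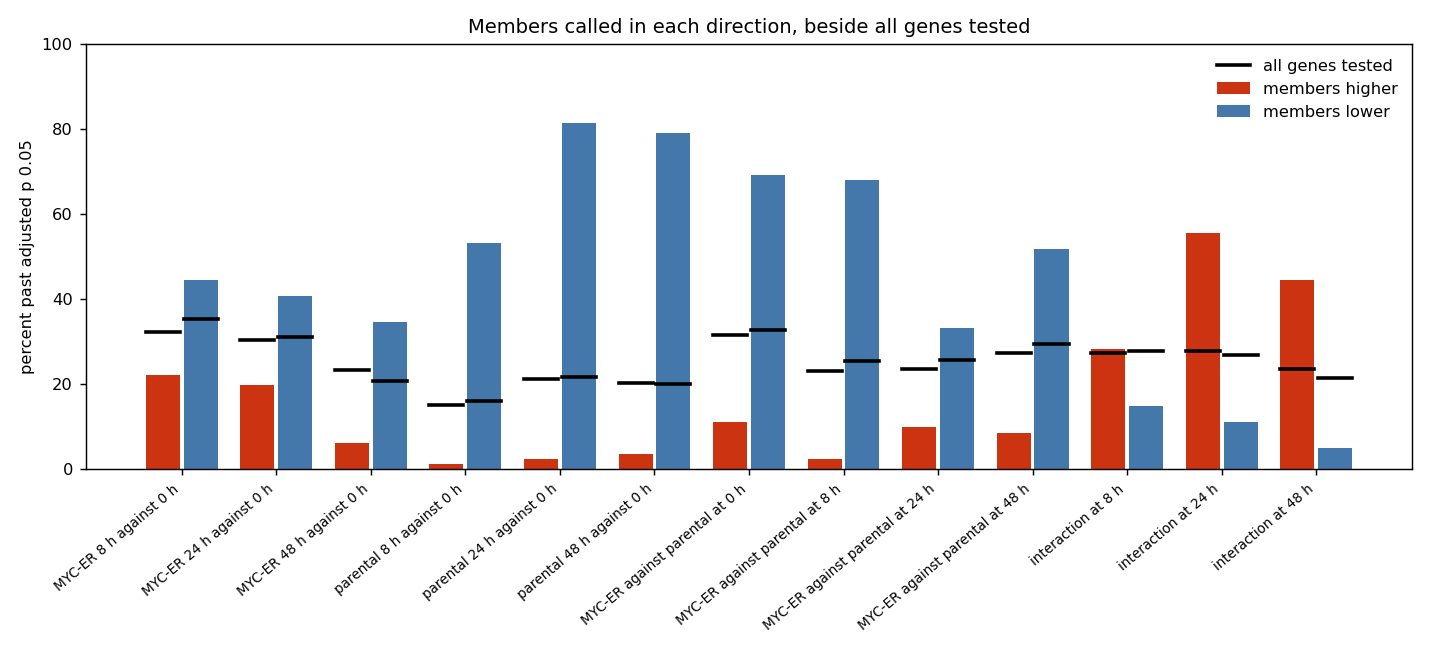
Percent of the 81 members tested that were called higher (red) or lower (blue) in each comparison, with black lines for the percent of all 22158 genes in that direction. The blue bars of the parental comparisons reached 81.5% at 24 h. The interaction bars at 8 h, 24 h and 48 h were higher for the red than for the blue direction.

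For many members the lines changed by unequal amounts after 4-OHT. The interaction was positive for 23 and negative for 12 members at 8 h, where 55.2% of all genes were called, 27.3% positive and 27.8% negative. At 24 h it was 45 and 9, beside 54.5%, 27.7% and 26.8%, and at 48 h 36 and 4, beside 45.0%, 23.6% and 21.4%. Members' medians were 0.08, 0.32 and 0.25, with -0.08, 0.02 and 0.07 for all genes. The 8 h split was 21 higher and 18 lower with library size alone, when the median of all genes was -0.20, and 37 higher and 10 lower without parental 0 h replicate 2. Without replicate 1, 2 or 3 of parental 0 h, 34, 47 and 37 members were called at 8 h, 51, 65 and 46 at 24 h and 39, 50 and 30 at 48 h. The 48 h split was 22 higher and 8 lower with GC and length trends removed and 21 higher and 9 lower without parental 0 h replicate 3.

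NDUFS8 had the largest positive interaction of complex I at 24 h, 1.27 (adjusted p = 2.5e-08, SE 0.13): in MYC-ER cells it rose by 0.61 (adjusted p = 4.4e-06, SE 0.091), to 68.4, 70.4 and 67.8 CPM, and in parental cells it fell by 0.66 (adjusted p = 1.1e-05, SE 0.091), to 73.3, 69.2 and 69.7 CPM. The starting levels of the lines did not overlap, and the 24 h values did. UQCRQ and ATP5F1D gave 1.25 (adjusted p = 2.5e-08, SE 0.13) and 1.40 (adjusted p = 1.5e-06, SE 0.19) at 24 h. At 48 h NDUFB8 gave 0.96 (adjusted p = 1.2e-06, SE 0.12). Negative interactions marked SDHD, -0.66 (adjusted p = 2.2e-06, SE 0.092) at 8 h and -0.72 (adjusted p = 1.8e-06, SE 0.092) at 48 h, NDUFA5, -0.87 (adjusted p = 5.8e-07, SE 0.10) at 48 h, and NDUFS1, -0.66 (adjusted p = 8.5e-07, SE 0.084) at 24 h, though that of NDUFS1 was -0.08 (adjusted p = 0.34) with GC and length trends removed.

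The related genes were taken as lists. Of 7 subunits and carriers whose names fall outside the rule, 6 were tested, with COX4I2 at 0 counts. CYCS, which encodes cytochrome c, the carrier between complexes III and IV, had 129, 137 and 142 CPM in MYC-ER 0 h, then 270.1, 275 and 227 (8 h), 165, 156 and 161 (24 h) and 89.2, 88.3 and 87.6 (48 h). CYCS rose by 0.92 (adjusted p = 5.5e-10, SE 0.077) at 8 h and was lower by 0.62 (adjusted p = 7.4e-07, SE 0.077) at 48 h, with the 4 groups apart. NDUFAB1, the acyl carrier protein of complex I, rose by 0.56 (adjusted p = 6.1e-05, SE 0.10) at 8 h. COX4I1, the broadly expressed subunit 4 of complex IV, fell by 0.46 (adjusted p = 5.8e-05, SE 0.086), from 372, 375 and 398 CPM to 287, 263 and 279. NDUFA4L2, a paralogue of NDUFA4 known from hypoxia, was at 0.134 ± 0.0300 CPM at 0 h and 0.615 ± 0.0177 at 24 h.

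Of the 13 subunits made from mitochondrial DNA, none was called higher in MYC-ER cells after 4-OHT, and 2, 7 and 10 were lower at 8, 24 and 48 h, with medians of -0.30, -0.44 and -0.64. In parental cells none was lower and 3, 2 and 2 were higher. Of all genes 35.4%, 31.2% and 20.7% were lower in MYC-ER cells and 15.0%, 21.2% and 20.4% higher in parental cells at these times, so the MYC-ER share at 8 h lay below that of all genes and the parental shares were near it. Their reads entered libraries made by poly(A) selection, and parental 0 h replicate 1 held 34459 CPM of them against 66251 and 68443 in the other 2 libraries.

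Assembly factors build the complexes without staying in them. Of all genes, 32.2% higher and 35.4% lower were called at 8 h in MYC-ER cells and 23.4% higher and 20.7% lower at 48 h. Of 16 for complex I, 10 were higher and 3 lower at 8 h in MYC-ER cells, with a median of 0.41 against -0.07 for the 37 subunits. NDUFAF4 had 14.9, 15.9 and 18.01 CPM at 0 h, 29.1, 29.1 and 28.1 at 8 h and 9.09, 7.88 and 8.27 at 48 h, and it rose by 0.82 (adjusted p = 1.8e-09, SE 0.073) at 8 h and was lower by 0.95 (adjusted p = 7.1e-10, SE 0.074) at 48 h. At 48 h 3 of the 16 were higher and 5 lower. Of 38 factors for complexes II to V, 18 were higher and 13 lower at 8 h, and 3 and 20 at 48 h, so that the share lower at 8 h (34.2%) was near that of all genes. ATPAF1, which assembles the catalytic part of ATP synthase, fell by 0.63 (adjusted p = 2.1e-11, SE 0.043) at 8 h. The difference between these lists and the members was not tested.

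Of 14 regulators of mitochondrial biogenesis, 8 were higher and 5 lower at 8 h in MYC-ER cells, beside 32.2% higher and 35.4% lower of all genes. PPARGC1A, the coactivator PGC-1alpha, had 5.16, 4.96 and 5.19 CPM at 0 h, 0.246, 0.277 and 0.160 at 8 h and a mean of 10.6 ± 0.570 at 48 h (SD, n = 3). It fell by 4.49 (adjusted p = 2.6e-14, SE 0.21) at 8 h and was higher than at the start by 1.05 (adjusted p = 2.4e-05, SE 0.17) at 48 h. Its relative PPRC1 rose by 0.95 (adjusted p = 1.2e-13, SE 0.048), and TFAM and TFB2M, which act in the transcription of mitochondrial DNA, rose by 0.84 (adjusted p = 7.2e-10, SE 0.071) and 1.29 (adjusted p = 1.8e-13, SE 0.067) at 8 h. NRF1 fell by 0.25 (adjusted p = 3.5e-04, SE 0.055) at 8 h and rose by 0.67 (adjusted p = 5.0e-10, SE 0.055) at 24 h, from 10.1, 9.004 and 9.91 CPM to 15.3, 15.1 and 15.7, and GABPA was at 0.06 (adjusted p = 0.72, SE 0.14) at 8 h. Of 17 genes of the citric acid cycle and pyruvate dehydrogenase, 7 were higher and 4 lower at 8 h, and 3 and 9 at 48 h, beside 23.4% higher and 20.7% lower of all genes at 48 h. PDHB, a subunit of pyruvate dehydrogenase, rose by 0.84 (adjusted p = 8.2e-12, SE 0.055).

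Among features the choice did not use, the members had short transcripts, with a median length of 1098 bases for the 81 tested against 2450 for all genes with a length and 3425 for those with a mean of at least 10 CPM, and a median GC content of 48.5% against 48.99%. With trends on GC content and length removed, 42, 55 and 57 members were lower in parental cells at 8, 24 and 48 h. The share of all genes lower in that setting is not given here, so these counts cannot be weighed against it. The part of length and GC content in the parental falls was not tested. RefSeq promoter windows were found for 69 of the 85 members. GCCATNTT matched in 31.9% of them (22) against 7.92% of 15842 protein-coding promoters, GCATGCGC in 18.8% (13) against 4.26%, CCGGAAGT in 14.5% (10) against 6.19% and CACGTG in 10.1% (7) against 8.88%. None of these strings contains another. The 7 tested members with CACGTG had a median log2 difference of -0.10 in MYC-ER cells at 8 h, with 2 above 0, and the 60 with a window and no CACGTG had -0.18, with 21 above 0. These are descriptions with no test.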

How the data were processed

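Counts per gene, in whole numbers, were deposited as 1 table for the 24 libraries. Per the labels' protocols the libraries were stranded, poly(A)-selected and read as 150-base pairs, 3 to a lane. Per the submitters' processing notes, Trimmomatic 0.39, STAR, StringTie 2.1.3b and the build GRCh38 were used. How the authors turned reads into counts, and whether strand was used, is not given in the sources used here, and a deposited count may be an estimate from transcript coverage. Ensembl identifiers were matched to symbols through GENCODE v29.

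Members and lists were chosen with earlier results of these data known. Counts were fitted with edgeR 4.0.16 (R 4.3.3; filterByExpr, TMM, quasi-likelihood, 1 mean per group over all libraries, 15 contrasts), with adjustment over 22158 genes. The procedure was tested on simulated data. Replicates of a group differed by 8.93 to 285 chi-square units per degree of freedom, so none was counted as a repeat of another. Alternatives were DESeq2 1.42.0 size factors and its Wald test, library size alone, upper quartiles, no filter, at least 10 counts in every library, the groups compared alone, a replicate block, GC and length trends removed, and each library left out.

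For each complex and comparison the text could name the 2 members with the largest rise and fall among those called with at least 10 CPM, paralogue sets, complex II, ATP5IF1, catalytic subunits, members that went against their complex, and genes of the related lists. NDUFS3 in MYC-ER cells at 8 h and NDUFS8 in parental cells at 24 h lie outside that rule and were chosen after their values were seen. Motifs were searched on both strands of RefSeq promoter windows (GRCh38.p14). Zero limits, 3 counts of the library total, cover counting error alone. Some genes are not reported here.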

Additional observations from a re-analysis of the deposited data

Results flagged for a closer look

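The change over time differed between the lines, by the interaction term of edgeR's quasi-likelihood fit, for 35, 54 and 40 of the 81 members tested at 8, 24 and 48 h. Of all genes, 55.2%, 54.5% and 45.0% were called in these interactions. At 8 h the named members were NDUFS8 (0.88), ATP5IF1 (-0.76) and SDHD (-0.66), in log2 and with a positive sign where MYC-ER cells changed more upward. At 24 h they were ATP5F1D (1.40), NDUFS8 (1.27), UQCRQ (1.25) and NDUFS1 (-0.66). At 48 h they were NDUFB8 (0.96), NDUFA5 (-0.87) and SDHD (-0.72). Each rests on the parental 0 h libraries, whose spread was the widest of the 8 groups.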

How the results depend on the processing

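The number of members called stayed within 1.5 times its value in most settings. Fitted on the groups compared alone it was 56 for MYC-ER 48 h against 0 h, 41 for 24 h against 8 h and 60 for 48 h against 24 h in MYC-ER cells, and 0, 39 and 32 for parental 8, 24 and 48 h against 0 h. The shares of all genes called in the other settings of this section are not given here. For MYC-ER 24 h against 8 h it was 51 with library size alone and 43 with GC and length trends removed, and for the lines at 24 h it was 22 with upper quartiles. Leaving out each library in turn gave 47 to 61, 46 to 55 and 26 to 46 for MYC-ER 8, 24 and 48 h against 0 h, 18 to 32 for 24 h against 8 h, 28 to 47 for 48 h against 24 h, 22 to 64, 60 to 72 and 54 to 71 for parental 8, 24 and 48 h against 0 h, 60 to 73, 47 to 62, 22 to 47 and 43 to 57 for the lines at 0, 8, 24 and 48 h, and 33 to 47, 46 to 65 and 30 to 50 for the interactions. The count for MYC-ER 48 h was lowest without MYC-ER 0 h replicate 3.

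Of 134 results on single genes, 129 did not reverse in any setting, and 110 neither reversed nor crossed the threshold in any. Those that reversed were NDUFS1 in parental cells at 24 h (-0.27) and 48 h (-0.20) with GC and length trends removed, NDUFA5 (-0.14) and SDHD (-0.014) in parental cells at 48 h with the GC trend removed, and SDHC in MYC-ER cells at 48 h (0.11) with library size alone. The causes were not tested. Same-numbered libraries did not deviate together (84 pairs, correlations from -0.078 to 0.094, median 0.0014, 12 of 24 libraries closest to their own number), so the numbers were not taken as pairs. With a replicate block 53, 48 and 32 members were called for MYC-ER 8, 24 and 48 h against 0 h, 44, 67 and 67 for parental cells, 23 and 33 for the later MYC-ER steps, 64, 57, 35 and 49 for the lines and 35, 49 and 40 for the interactions, none of them over 1.5 times from the fit without it. Depth limited the isoforms with under 1 CPM.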
